A study of Mus musculus with 2 samples.

Results

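The genes described here encode the subunits of the proteasome. They were taken as a list of 34 gene symbols, matched to the libraries through their gene identifiers, and all 34 were found among the 43346 genes measured. The list holds the 7 alpha and the 7 standard beta subunits of the 20S core, the 3 catalytic subunits of the immunoproteasome, and 17 subunits of the 19S regulatory particle.

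The proteasome is the main protease of the cytosol and nucleus, and it degrades proteins that carry chains of ubiquitin. Its 20S core is a barrel of stacked rings, in which outer alpha rings gate the entrance and inner beta rings hold the proteolytic sites. Psmb5, Psmb6 and Psmb7 carry the catalytic sites of the standard core, and Psmb8, Psmb9 and Psmb10 take their places in the immunoproteasome, a form common in immune cells and in cells exposed to interferon. The 19S particle caps the core: its base unfolds substrates with a ring of ATPases, and its lid removes the ubiquitin. In liver, the proteasome turns over metabolic enzymes and damaged proteins.

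The study measured total RNA from the liver of newborn mice of the strain B6NCrl, at postnatal day 0, with no treatment and no genetic change named in the labels. There was 1 group of 2 libraries, made from single livers of pup 1 and pup 3. Each library started from 13 pg of RNA longer than 200 nt, an amount given as 1 cell-equivalent, with spike-in RNA and a SmartSeq protocol, so the input was liver RNA and not a picked cell. Both labels name the same donor entry and sex was not collected, so the spread between the libraries may be technical, and differences between animals and between library preparations cannot be told apart.

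Pup 1 had a depth of 54817565 endogenous expected counts and pup 3 one of 34792898. A count of 0, taken as a limit of 3 counts, allowed up to 0.0547 and 0.0862 CPM (counts scaled to library size). Levels are given as TPM, the length-corrected transcript share of a library, rescaled to endogenous genes, with the mean ± SD over the 2 pups (n = 2). Where a pair of values stands without names, pup 1 comes first. Ratios are log2((TPM pup 3 + 1)/(TPM pup 1 + 1)), which understates changes of low genes, and no test between pups is possible with 1 library each. Liver identity was checked with marker genes. All 6 hepatocyte markers, led by albumin, were present in both pups and summed to 126064 and 104566 TPM. The 7 erythroid markers summed to 133241 and 163586 TPM, so red cell RNA was a large part of both libraries. In RNA from a whole organ, fewer cells of a type and less RNA per cell cannot be told apart.

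The following promoters are shown because they belong to the pair of subunit genes with the highest mean level, the catalytic subunits Psmb6 and Psmb5. Both hold the core letters of the antioxidant response element, TGACNNNGC, which is bound by the factors Nfe2l1 and Nfe2l2. Each stretch is 120 bases of GRCm38.p6, upstream of the annotated gene, read 5′ to 3′ on the gene's strand from the RefSeq promoter table, with the element in capitals. The Psmb5 stretch lies at chr14:54618023-54618142 (minus strand) and the Psmb6 stretch at chr11:70525237-70525356 (plus strand).
Psmb5: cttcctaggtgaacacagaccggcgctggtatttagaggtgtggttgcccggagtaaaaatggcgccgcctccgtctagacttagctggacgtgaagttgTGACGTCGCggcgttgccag
Psmb6: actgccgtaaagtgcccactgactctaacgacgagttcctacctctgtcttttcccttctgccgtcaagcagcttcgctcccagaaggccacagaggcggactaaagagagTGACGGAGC
The first base of the element stood at -47 in Psmb5 and at -9 in Psmb6, counted from the RefSeq start. In the stretches shown, 11 bases follow the element in Psmb5 and 0 in Psmb6. The Psmb6 stretch thus ends at the RefSeq start, and the Psmb5 stretch ends short of it. The search covered 250 bases before to 50 after each start, on both strands, and 28 of the 34 genes had a promoter in the table. The element was found in 4 of these 28 (14.3%), namely Psmb5, Psmb6, Psmc6 and Psmd12, against 14% of 27025 promoters of all genes. The core of the interferon-stimulated response element (GAAA, any pair of bases, GAAA) was in 2 of 28 (7.14%), Psmb3 and Psmd4, against 3.99% of all promoters. The CCAAT box was in 11 of 28 (39.3%) against 41.1% of all promoters. A match is only a match of letters, and the shares are given as descriptions.

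Proteasome subunit genes were expressed at moderate to high levels. Together they took 0.412% of endogenous TPM in pup 1 and 0.509% in pup 3, or 0.46% ± 0.0686 (SD, n = 2). Mean levels ran from 15.8 TPM (Psmb9) to 363 TPM (Psmb6), with a median of 121 TPM, and 21 members belonged to the 1096 genes whose mean reached 100 TPM. Of the 34 members, 32 were detected at 1 TPM or more in each pup and 30 (88.2%) in both. Among the 4202 genes within the same range of mean levels, 62.7% were detected in both pups, and among the 7678 genes detected in either pup, 46.3% were. The difference between the detection shares was not tested, and the range is not a match of level. Its floor is Psmb9, and most of its 4202 genes had a mean under 100 TPM, while 21 of the 34 members reached 100 TPM.

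**Figure D1:**
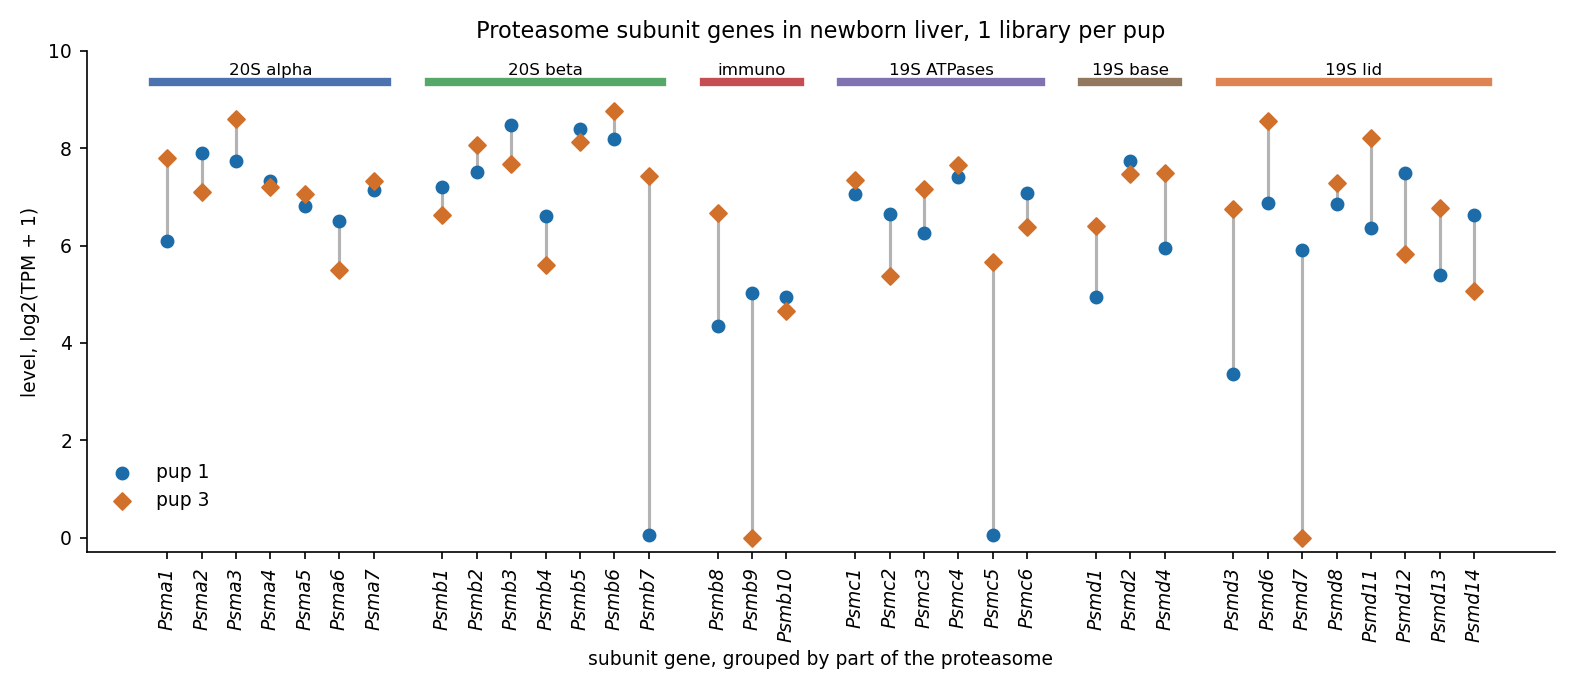
Level of each of the 34 subunit genes as log2(TPM + 1) on the vertical axis, by part of the proteasome, with a circle for pup 1 and a diamond for pup 3, 1 library each. Psmb7 and Psmc5 lie near 0 in pup 1 and Psmb9 and Psmd7 at 0 in pup 3, while the other 30 genes lie well above 0 in both pups.

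The 7 alpha subunits were detected in both pups, and their sum was 1021 TPM in pup 1 against 1230 TPM in pup 3. Psma4, Psma5 and Psma7 differed least: Psma4 had 160 and 146 TPM (153 ± 9.93), Psma5 112 and 133 TPM (122 ± 14.9) and Psma7 141 and 159 TPM (150 ± 12.3). Psma3, the most abundant alpha subunit gene, had 213 and 389 TPM (301 ± 124). Psma2 had 238 and 137 TPM (188 ± 71.1). These 5 genes stayed within 2-fold between the pups.
Psma1 had 67.1 TPM in pup 1 against 222 TPM in pup 3, a log2 ratio of 1.71, and it was the only alpha subunit gene more than 2-fold higher in pup 3. Psma6 had 89.7 and 44.5 TPM, a log2 ratio of -0.997, just inside the line of -1 because of the added 1 TPM (2.02-fold in TPM alone). The alpha ring genes thus spanned 3.55-fold from lowest to highest in pup 1 and 8.75-fold in pup 3, although the assembled ring holds its subunits in equal number.

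The 7 standard beta subunits included the highest values of the whole complex. Psmb6, the caspase-like catalytic subunit, had 291 TPM in pup 1 against 435 TPM in pup 3 (363 ± 102). Psmb5, the chymotrypsin-like catalytic subunit, had 335 and 278 TPM (307 ± 40.5), a log2 ratio of -0.27. Both were therefore high in both pups and within 2-fold.
Psmb7 encodes the trypsin-like catalytic subunit, and its gene lies on chromosome 2 at 38588036 to 38644087 (minus strand, GRCm38). It had 2 expected counts (0.0428 TPM) in pup 1 against 5144 expected counts (171 TPM) in pup 3, a ratio of 4004 with a 95% interval of 1108 to 33058 from the exact Poisson limits of 2 counts. This interval covers counting error only, and no molecular identifiers are named in the labels. An exon of Nek6, a kinase gene on the opposite strand, overlaps Psmb7. Nek6 had 53 expected counts in pup 1 against 2484 in pup 3, and as the strand setting of the counting was not given in the sources used here, reads in the overlap cannot be told apart.
The other beta subunits have no catalytic site. Psmb3 had 355 and 202 TPM (278 ± 108), Psmb2 182 and 265 TPM (223 ± 58.4) and Psmb1 147 and 97.7 TPM (122 ± 35.1). Psmb4 had 96.1 and 47.6 TPM, a log2 ratio of -0.999, again just inside the line. The beta sum was 1407 TPM in pup 1 against 1497 TPM in pup 3, a smaller relative difference than that of several of its members.

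The 3 immunoproteasome subunit genes were much lower than their standard counterparts in sum, with 80.5 TPM in pup 1 against 125 TPM in pup 3. They amounted to 12.9% of the summed standard catalytic subunits in pup 1 and 14.1% in pup 3 (13.5% ± 0.849, SD, n = 2). These shares were close between pups, but they rest on different genes. Psmb7 adds only 0.0428 TPM to the standard sum in pup 1, and Psmb9 adds 0 TPM to the immunoproteasome sum in pup 3. The small SD therefore does not describe a steady ratio of single genes, whose levels were not close.
Psmb8, which replaces Psmb5, had 19.3 TPM (807 expected counts) in pup 1 against 101 TPM in pup 3, a 5.22-fold higher level in pup 3. Psmb9, which replaces Psmb6, had 31.7 TPM (1336 expected counts) in pup 1 against 0 counts in pup 3, which allows up to 0.104 TPM by the limit of 3 counts. Its level in pup 1 was 305-fold above that limit, and 49.7-fold above the upper credibility bound of 0.637 TPM deposited for pup 3. Psmb10, which replaces Psmb7, had 29.6 and 24.2 TPM (26.9 ± 3.78), a log2 ratio of -0.28. Psmb8 and Psmb9 thus differed between pups in opposite directions, and only Psmb10 was similar in both pups.
Within pup 1, Psmb5 was 17.4-fold above Psmb8 and Psmb6 was 9.19-fold above Psmb9. Within pup 3, Psmb5 was 2.76-fold above Psmb8 and Psmb7 was 7.08-fold above Psmb10. The standard gene was the higher of each of these pairs, and the exception was Psmb7 in pup 1, where its 0.0428 TPM lay below the 29.6 TPM of Psmb10.
Psmb8 and Psmb9 are neighbours in the major histocompatibility locus on chromosome 17, at 34197721 to 34201454 (plus strand) and 34181987 to 34187764 (minus strand). The peptide transporter genes Tap1 and Tap2 stand beside them, at 34187553 to 34197225 and 34203527 to 34216321 (plus strand), and both had 0 counts in both pups. Exons of Tap1 and Psmb9 overlap on opposite strands.
Marker genes of immune cells were measured beside these values. Summed neutrophil markers were 6119 and 8957 TPM, macrophage markers 828 and 1309 TPM and B lymphocyte markers 95 and 267 TPM, with all 6, 6 of 8 and 3 of 5 markers detected in both pups. Markers of T and natural killer cells summed to 67.1 and 117 TPM, with 1 of 5 detected in both pups and Cd3e and Cd8a at 0 in both. These 4 sums were higher in pup 3, and their part in the immunoproteasome values was not tested.

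**Figure D2:**
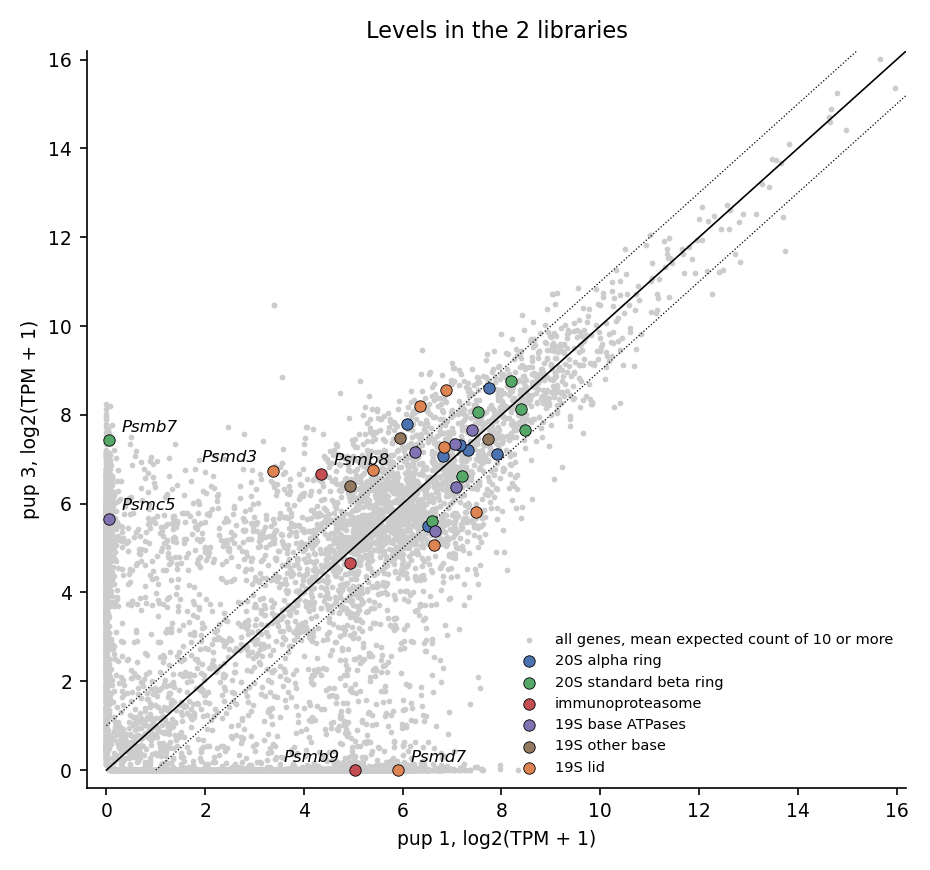
Level in pup 3 against level in pup 1, both as log2(TPM + 1), for the 34 subunit genes in colour by part of the proteasome and for the 8120 genes whose expected counts averaged 10 or more in grey; the solid line marks equal levels and the dotted lines 1 log2 unit to either side on this scale. Named genes are the 4 that fell under 1 TPM in 1 pup, and Psmb8 and Psmd3.

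The 6 ATPases of the 19S base form the ring that unfolds substrates and threads them into the core. They summed to 611 TPM in pup 1 against 677 TPM in pup 3. Psmc4 had 169 and 201 TPM (185 ± 22.8), Psmc1 132 and 162 TPM (147 ± 20.9), and Psmc6 135 and 82.4 TPM (109 ± 37.4). Psmc3 had 75.2 and 142 TPM (108 ± 47), and Psmc2 had 99.3 and 40.6 TPM, a log2 ratio of -1.27.
Psmc5, on chromosome 11 at 106256154 to 106263120 (plus strand), had 2 expected counts in pup 1 against 1729 expected counts (49.6 TPM) in pup 3. The ratio was 1158, with an exact Poisson 95% interval of 321 to 9561 for counting error. Psmc5 was the ATPase gene under detection in pup 1, and the other 5 were detected in both pups. Exons of Psmc3 overlap on the opposite strand with Slc39a13, a zinc transporter gene with 7542 expected counts in pup 1 against 1 in pup 3, so reads in this overlap cannot be told apart either.

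The other base subunits dock ubiquitin chains and their carriers. Psmd2, a scaffold that binds ubiquitin-like domains, had 212 and 175 TPM (193 ± 26.2). Psmd4, a ubiquitin receptor, had 60.9 and 178 TPM, a log2 ratio of 1.53. Psmd1, the other large scaffold, had 29.7 and 83.2 TPM, a log2 ratio of 1.45. Psmd1 and Psmd4 were thus more than 2-fold higher in pup 3, and Psmd2 was the steady member.

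Of the 8 lid subunit genes, 7 were past 2-fold between the pups, with 4 higher and 3 lower in pup 3. Over the 8120 genes whose expected counts averaged 10 or more, 67.6% were past 2-fold in either direction. Psmd3 had 9.3 TPM in pup 1 against 106 TPM in pup 3, an 11.4-fold higher level. Psmd11 had 81.1 and 293 TPM, a log2 ratio of 1.84, and Psmd6 had 117 and 375 TPM, a log2 ratio of 1.67. Psmd13 had 41.2 and 108 TPM, a log2 ratio of 1.37, but its exons overlap on the opposite strand with Sirt3, a mitochondrial deacetylase gene with 7437 and 2068 expected counts. Its protein-coding transcripts alone had 31.2 and 61.7 TPM, just within 2-fold. In pup 3, 28 TPM of Psmd13 lay on a transcript of 361 nt with 210 expected counts. The genes of these 4 scaffold subunits were the lid genes past 2-fold higher in pup 3 on the TPM of the whole gene.
Psmd12, another lid scaffold subunit, had 178 and 55.4 TPM, a log2 ratio of -1.67. Psmd14 is the lid enzyme that cuts ubiquitin chains from substrates, and Psmd7 is its partner in the same dimer. Psmd14 had 98.3 and 32.7 TPM, a log2 ratio of -1.56. Psmd7, on chromosome 8 at 107580381 to 107588464 (minus strand), had 59.1 TPM (3702 expected counts) in pup 1 against 0 counts in pup 3, which allows up to 0.0698 TPM and makes pup 1 at least 847-fold higher. Both partners of the dimer were therefore lower in pup 3. The lid gene within 2-fold was Psmd8, with 114 and 155 TPM (135 ± 29.1).

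Over all 34 members, 10 had a log2 ratio of 1 or more (higher in pup 3) and 5 had a ratio of -1 or less. Among the 8120 genes whose expected counts averaged 10 or more, 33.1% were higher and 34.5% lower by the same rule, and among the 4202 genes in the members' level range 35.5% were higher and 30.7% lower. The members' count on the higher side was near this background and that on the lower side was under it. With edgeR's TMM scaling, which shifts ratios by about -0.26, the split was 10 higher (29.4%) and 9 lower (26.5%). Over the 8120 genes it was then 30.7% and 36.7%, and in the level range 32.2% and 33.6%. The lower side was thus nearer the background with TMM scaling. Psma2 (-1.05), Psma6 (-1.25), Psmb3 (-1.07) and Psmb4 (-1.26) crossed the line. Psma5, Psma7 and Psmc4, with ratios of 0.25, 0.17 and 0.25, change sign under TMM scaling. The median of the members was 0.25 without it and -0.01 with it. The median over the 8120 genes was -0.04 without that scaling.
The spread of each gene between the pups is described by the SD of its log2 levels in the 2 libraries. Its median was 0.67 over the 34 members, against 1.38 over the genes in the same level range. That range is not a match of level: most of its 4202 genes had a mean under 100 TPM, while 21 of the 34 members reached 100 TPM. The median SD was 0.49 in the 14 genes of the standard 20S core, of which 2 (14.3%) were past 2-fold. It was 1.03 in the 17 genes of the 19S particle, of which 11 (64.7%) were, near the 67.6% of all 8120 genes. With TMM scaling 6 of the 14 core genes (42.9%) were past 2-fold and still 11 of the 17 cap genes, against 67.4% of all genes. The median SDs were then 0.51 and 0.90. The difference between core and cap was not tested. Across the 30 members detected in both pups the levels had a Spearman rank correlation of 0.47 between pups, against 0.48 across the 2634 such genes in the level range. These are correlations across genes of the same pair of libraries, and genes are not independent replicates.
In sum, the 19S genes had 0.664 of the TPM of the 20S core genes in pup 1 and 0.821 in pup 3 (0.742 ± 0.111, SD, n = 2). Per gene, the core averaged 173 and 195 TPM and the 19S particle 94.8 and 132 TPM, so the core genes were higher in both pups on this length-corrected scale. On CPM, which is not corrected for length, the direction turned, with 109 and 135 CPM per core gene and 117 and 160 CPM per 19S gene. The 34 members lie on 14 chromosomes. The 6 on chromosome 11 took both directions: Psmd3, Psmd11 and Psmc5 were past 2-fold higher, Psmd12 past 2-fold lower, and Psmb3 and Psmb6 within 2-fold.
The deposited credibility bounds of TPM did not overlap between the pups for any of the 34 members. The same share over all genes was not computed, so this count is not read as a trait of the members. Over the 30 members detected in both pups, the median width of the bounds to either side was 3.24% of the level. These bounds describe read assignment and sampling within a library, not differences between libraries of the same tissue.

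**Figure D3:**
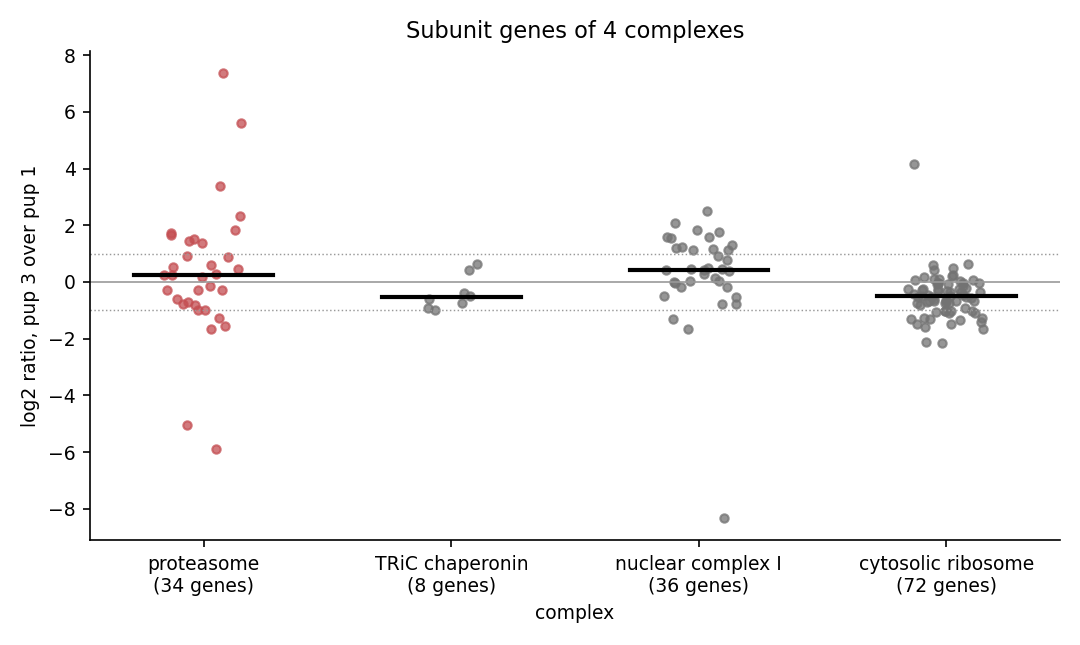
Log2 ratio of pup 3 over pup 1 for each gene of the proteasome and of 3 other complexes, 1 point a gene, with the median as a bar and the 2-fold lines dotted. The proteasome has 4 points beyond 5 log2 units, and all 8 chaperonin genes lie within 2-fold on TPM as deposited (6 with TMM scaling, not drawn). The most extreme ratio drawn is that of Ndufa10 in complex I, at -8.33.

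Other complexes with fixed subunit numbers were set beside the proteasome. The TRiC chaperonin, which folds actin and tubulin, had all 8 genes in both pups and within 2-fold on TPM as deposited, with a median SD of 0.43 on the log2 scale. Of 72 cytosolic ribosomal protein genes, all were detected in both pups, 1 was past 2-fold higher and 19 past 2-fold lower (12 with spike-in scaling), with a median SD of 0.39. Of 36 nuclear genes of respiratory complex I, 35 were detected in both pups, 13 were past 2-fold higher (8 with TMM scaling) and 3 lower (5 with TMM scaling), with a median SD of 0.55. The share past 2-fold was 44.1% in the proteasome and 44.4% in complex I, against 67.6% of the 8120 genes. With TMM scaling it was 55.9% in the proteasome, 36.1% in complex I and 25% in TRiC, against 67.4% of the 8120 genes. The order of the complexes thus depends on the scaling. The differences between complexes were not tested, and their genes differ in level, with a median of mean TPM of 457 for the ribosome, 214 for complex I, 148 for TRiC and 121 for the proteasome.

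The transcript tables divide each gene's level among its annotated isoforms. The isoform counts below were not computed over other genes, so they describe the members only. The leading transcript was the same in both pups in 28 of the 30 members detected in both, and it held over 90% of the gene in both pups in 17 members. Transcripts annotated as protein-coding made up 94.5% of the members' summed TPM in pup 1 and 88.4% in pup 3, and at least 90% of the gene in both pups in 24 of the 32 members with a level above 0 in both.
Psmd14 was the clearest exception, with 4812 expected counts for the gene in pup 1 against 413 in pup 3. In pup 1 its full-length coding transcript, of 1541 nt and 12 exons, had 71.3 TPM (72.5% of the gene). In pup 3 that transcript had 0 counts, and 99.5% of the gene was assigned to a non-coding transcript of 540 nt and 2 exons, at 32.5 TPM. Its last exon runs 280 bases past exon 2 of the coding transcript. Counting protein-coding transcripts alone, 29 members instead of 30 were detected in both pups, a count added after the data were seen.
Psma3 was the other member whose leading transcript differed. Its coding transcript of 859 nt had 113 and 4.37 TPM, while a transcript of 875 nt, annotated as a target of nonsense-mediated decay, had 0 and 243 TPM. The latter has 1 further exon of 83 nt and starts the next exon 5 nt later, and the isoforms share 792 nt, so only a small part of the reads can separate them. Psma3 also has a processed pseudogene, Gm13835, whose windows of 31 nt all occur in Psma3 transcripts and which was assigned 1131 and 1276 expected counts, so its gene total is uncertain too.
Smaller shifts were seen elsewhere. An intron-retaining form of Psmc4 had 0 and 55.7 TPM, so that coding transcripts made up 99.4% of Psmc4 in pup 1 and 71.7% in pup 3. Psmd13 had coding shares of 75.6% and 57.2%, and Psmb4 had 55.2% and 51.9%, the rest of Psmb4 being mostly an intron-retaining form. The Psmb8 isoforms kept their shares, with the isoform of 815 nt at 64.9% and 64% while the gene level was 5.22-fold higher in pup 3.

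**Figure D4:**
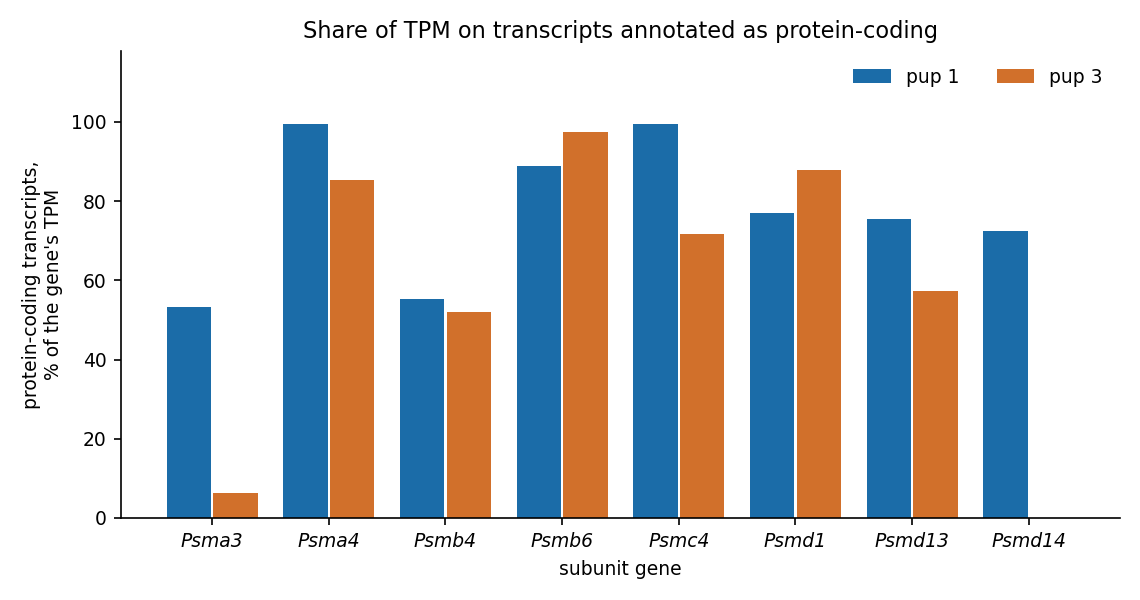
Percent of each gene's TPM assigned to transcripts annotated as protein-coding, in pup 1 and pup 3, for the 8 members under 90% in at least 1 pup. Psma3 was at 53.2% and 6.35% and Psmd14 at 72.5% and 0%, while Psmb4 was at 55.2% and 51.9%.

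Other genes of the pathway were taken from lists by role. Among all genes detected in either pup, 46.3% were detected in both, while the list counts below also hold genes detected in neither. Of 4 further proteasome parts, the ubiquitin receptor Adrm1 had 164 and 168 TPM and the small lid subunit Sem1 60 and 78.2 TPM. The testis subunit Psma8 and the thymus subunit Psmb11 had 0 counts in both pups. Neither of these tissue-specific subunits was detected.
The activators and the inhibitor that bind the core ends were detected in both pups in 5 of 5 cases, with 3 past 2-fold higher in pup 3 and 0 lower, against 33.1% and 34.5% of all genes. With TMM scaling 1 of the 5, Psme2, was past 2-fold, against 67.4% of all genes. Psme1 and Psme2, the interferon-inducible subunits of the PA28 cap, had 72.5 and 160 TPM and 43.8 and 280 TPM, with log2 ratios of 1.13 and 2.65. Psmf1, an inhibitor of the core, had 72.5 and 153 TPM, and Psme3, the nuclear cap subunit, 33.5 and 40.2 TPM. Psme1, Psme2 and Psmb8 were therefore higher in pup 3 while Psmb9 was at 0 there.
Of 9 assembly factor genes found, 2 were detected in both pups, 5 in 1 pup and 2 in neither. The 46.3% over all genes is a share of those detected in either pup, so the 2 assembly factors detected in neither stand outside it. Psmg2, a chaperone of alpha ring assembly, had 0 counts in pup 1 and 179 TPM in pup 3, and Psmd5, a chaperone of the base, had 0 counts and 55.2 TPM. Psmg3 went the other way, with 38.2 TPM and 0 counts. Psmd9, a base chaperone, and Pomp, which matures the beta ring, were detected in both, with 72 and 39.1 TPM and 26.2 and 43 TPM.
Ubiquitin itself was abundant. The polyubiquitin gene Ubb had 1765 and 1528 TPM, and the ribosomal fusion gene Rps27a had 419 and 449 TPM. Of 5 genes of this list with a ratio, 0 were past 2-fold higher and 2 lower (0 lower with spike-in scaling). Over all genes, 33.1% were higher and 34.5% lower.
Of 12 deubiquitinases, shuttles and extraction factors, 5 were detected in both pups, 4 in 1 and 3 in neither. Of 10 with a ratio, 2 were past 2-fold higher and 5 lower, together 70%, near the 67.6% of all genes. Usp14, a deubiquitinase of the 19S base, had 5 expected counts in pup 1 against 109 TPM in pup 3, and Uchl5, the other base deubiquitinase, had 103 and 36.6 TPM. The extraction ATPase Vcp had 82.9 and 119 TPM. The 2 base deubiquitinases thus went in opposite directions.
Of 10 transcription regulators, 5 were detected in both pups. Of 6 with a ratio, 2 were past 2-fold higher and 2 lower, together 66.7%, near the 67.6% of all genes. Nfe2l1, known to drive subunit genes when proteasome activity falls, had 25.7 and 43.5 TPM, and its relative Nfe2l2 had 63.5 and 172 TPM. Irf8, a factor of myeloid cells, had 55.1 and 33.7 TPM.
Antigen processing genes were detected in both pups in 7 of 9 cases, the others being Tap1 and Tap2. B2m, the light chain of class I molecules, had 835 and 894 TPM. The class I heavy chains H2-D1 and H2-K1 had 509 and 219 TPM and 144 and 293 TPM, and the chaperone Calr had 204 and 269 TPM. Of 7 with a ratio, 2 were past 2-fold higher (1 with TMM scaling) and 2 lower (1 with spike-in scaling). Together this was 57.1%, against 67.6% of all genes. The 2 class I heavy chains differed in opposite directions.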

How the data were processed

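RNA-seq of 2 P0 liver libraries was analysed from per-gene and per-transcript tables, made with mm10 and GENCODE M4 per the notes deposited with each library. Aligner, quantifier and strand setting were not given in the sources used here. Column names match the format of RSEM. Per the file headers, the tables hold expected counts, TPM and isoform percent, and the posterior mean TPM with its credibility bounds is a deposited estimate treated as a score.
Spike-ins (97) were removed and TPM rescaled to the total it had with them. Of 43346 gene identifiers, 42462 were named with GENCODE M21 (GRCm38), which also gave coordinates and transcript types, although values came from M4. Genes needed a mean expected count of 10 for ratios, with a pseudocount of 1 TPM, and detection meant 1 TPM. Ratios compare libraries, so no p-value was computed. Rounded expected counts gave edgeR 4.0.16 TMM and DESeq2 1.42.0 size factors, used for scaling alone; counts by list under each scaling were added after the data were seen. Python 3.11.15 (pandas 2.3.3, scipy 1.17.1) did the rest, and the ratio was tried on simulated Poisson counts. These held no noise of library preparation and no isoform assignment, so they do not bear on such noise in the libraries.
Expected counts per library were 56959836 and 35973980 with spike-ins. Reads of pseudogenes can be confused with a member: of the windows of 100 nt in its transcripts, Psma5 shared 23.7%, Psmb5 22.2% and Psma3 13.4% with other genes, the other members at most 5.46%. Exons of 10 members overlap another gene, of which 3 overlap a gene with at least 100 expected counts.
Members and lists were chosen with earlier results of these data known. From each list the text names up to 4 genes of highest mean TPM and any gene of at least 30 TPM in 1 library with fewer than 3 counts in the other. Tap1 and Tap2 fall outside that rule and were named after their values were seen. Paaf1 was listed and not matched. Some genes that the rule names are not reported here.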

Additional observations from a re-analysis of the deposited data

How the results depend on the processing

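Of 45 alternatives over 8 results, 38 stayed within 1 SD between pups (for counts, within 1.5 times) of the reported value. Some of these could not have moved. For the summed share, the immunoproteasome share and the 19S to 20S ratio, 1 pup always lies within 1 SD of the mean of 2. All 34 members passed the filter on low values, so dropping it changed nothing. The members past 2-fold higher ranged from 8 to 12. The number of members past 2-fold lower (5 as reported) was 3 where at least 100 expected counts in both pups were required, which removes the 4 members near 0, and 9 with edgeR TMM or DESeq2 size factors. The median ratio of the members, 0.25 as reported, was -0.01 with either scaling and 0.45 with spike-in totals. On CPM, which is not corrected for length, the immunoproteasome share was 18.7% instead of 13.5% and the 19S to 20S ratio 1.37 instead of 0.742. Leaving out 1 pup gave a summed share of 0.412% to 0.509%, a share of immunoproteasome genes of 12.9% to 14.1% and a 19S to 20S ratio of 0.664 to 0.821. Members detected in both pups numbered 29 to 30 under every detection rule tried. No paired analysis was possible because there is 1 group. With 1 library per pup, the spread between animals and between preparations cannot be told apart.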
